A study of Mus musculus with 672 samples.

Results

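Among lymphoid progenitors of mice without Mbd3, some cells held many reads of Apoe while most others held almost none. The cells described here are the Mbd3-null cells with at least 10 Apoe reads, called Apoe-positive below. They numbered 92 of the 284 null cells that passed the limits on cell quality, in a series of 672 sorted cells of which 561 passed. They are set against the other 192 null cells, each with 9 or fewer Apoe reads, population by population. The cells were selected on their raw Apoe read count, so the level of Apoe is a description and was not tested.

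Transcripts were counted in single bone marrow cells from the femurs and tibiae of 4 mice aged 7 weeks, of strain C57BL6/129Ola. Mice 18217 and 18219 had the genotype Mbd3_Del/Del and are called null, and mice 18218 and 18220 had Mbd3_Flox/Flox and are the controls. How the floxed gene was deleted, and in which cells, the labels do not say. Cells were sorted as lineage-negative, Sca-1+ and c-Kit+ with high Flt3 and without B220, in 3 populations: lymphoid-primed multipotent progenitors (LMPPs) without the IL-7 receptor, all-lymphoid progenitors (ALPs) with that receptor and without Ly6D, and B cell-biased lymphoid progenitors (BLPs) with IL-7 receptor and Ly6D. The replicate is the mouse, so each genotype has n = 2, and the populations of a mouse are not separate animals.

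Apoe encodes apolipoprotein E, a secreted protein that carries cholesterol and other lipids. In bone marrow it is well known as a product of macrophages, and it takes part in cholesterol efflux from blood stem and progenitor cells. Mbd3 is a subunit of NuRD, a complex that joins a nucleosome remodeller to histone deacetylases. LMPPs can give rise to myeloid and lymphoid cells, ALPs have started the lymphoid programme, and BLPs have started to express B lineage factors. Apoe lies on the minus strand of chromosome 7 (chr7:19696109-19699188, GRCm38), in a cluster with the apolipoprotein genes Apoc1, Apoc4 and Apoc2.

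Apoe-positive cells carried transcripts of the gate genes that all 3 populations share. At least 10 reads of Flt3 were found in 92 of 92 Apoe-positive cells and in 188 of 192 other null cells. The pan-leukocyte gene Ptprc reached that limit in 88 Apoe-positive cells and 183 other null cells. Kit did so in 76 and 126 cells, and Ly6a, which encodes Sca-1, in 72 and 93 cells of the same classes. Il7r, whose product marks ALPs and BLPs, reached 10 reads in 41 Apoe-positive cells (44.6%) and 148 other null cells (77.1%), and Ly6d, whose product marks BLPs, in 26 (28.3%) and 102 (53.1%). These counts pool populations, and LMPPs, which are gated without both proteins, make up more of the Apoe-positive cells. Within BLPs at 50000 reads per cell, Il7r was read in 100% of Apoe-positive cells of both mice, against 96.8% and 100% of other cells.

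Mbd3 itself was scarce in both classes. At least 10 Mbd3 reads were found in 2 Apoe-positive cells, an LMPP of mouse 18219 with 1409 reads and an ALP of mouse 18217 with 77 reads. A single cell of the other null cells, an ALP of mouse 18217, passed that limit with 189 reads. Any Mbd3 read was present in 29 Apoe-positive cells (31.5%) and in 75 other null cells (39.1%). The LMPP with 1409 reads gave the summed Apoe-positive LMPP library of mouse 18219 an Mbd3 level of 42.2 CPM (counts of a gene per 1000000 gene counts), against 0.156 CPM in that of mouse 18217 and 0.234 and 0.59 CPM in the other LMPPs of mice 18217 and 18219.

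Apoe reads separated null cells into a class near 0 and a class far above it. Of the 284 null cells, 113 had no Apoe read, 73 had 1 to 3, 6 had 4 to 9, 8 had 10 to 49 and 84 had 50 or more. Few cells therefore lay near the limit. The cells just inside it had 10, 13, 20, 21 and 25 reads, and those just outside it had 8, 7, 6, 5 and 4 reads. Apoe-positive cells held 99.6% of all Apoe reads of null cells. A further 2 null cells had enough Apoe reads and failed the quality limits.

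Per cell, Apoe ranged from 9.69 to 1516 CPM with a median of 170 CPM in Apoe-positive cells, and from 0 to 11.7 CPM with a median of 0 CPM in the other null cells. In LMPPs of mice 18217 and 18219 the medians of Apoe-positive cells were 170 CPM (51.2 to 535) and 359 CPM (9.69 to 1516). ALPs had medians of 123 CPM (16.6 to 342) and 154 CPM (45.6 to 455). BLPs had medians of 136 CPM (29.9 to 501) and 123 CPM (10.8 to 140). The ranges of the 3 populations overlap, and the LMPPs of mouse 18219 have the highest median and the highest cell, with 2796 reads. That cell held 22.0% of the Apoe reads of its library, and the top BLP of each mouse held 40.6%.

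**Figure D1:**
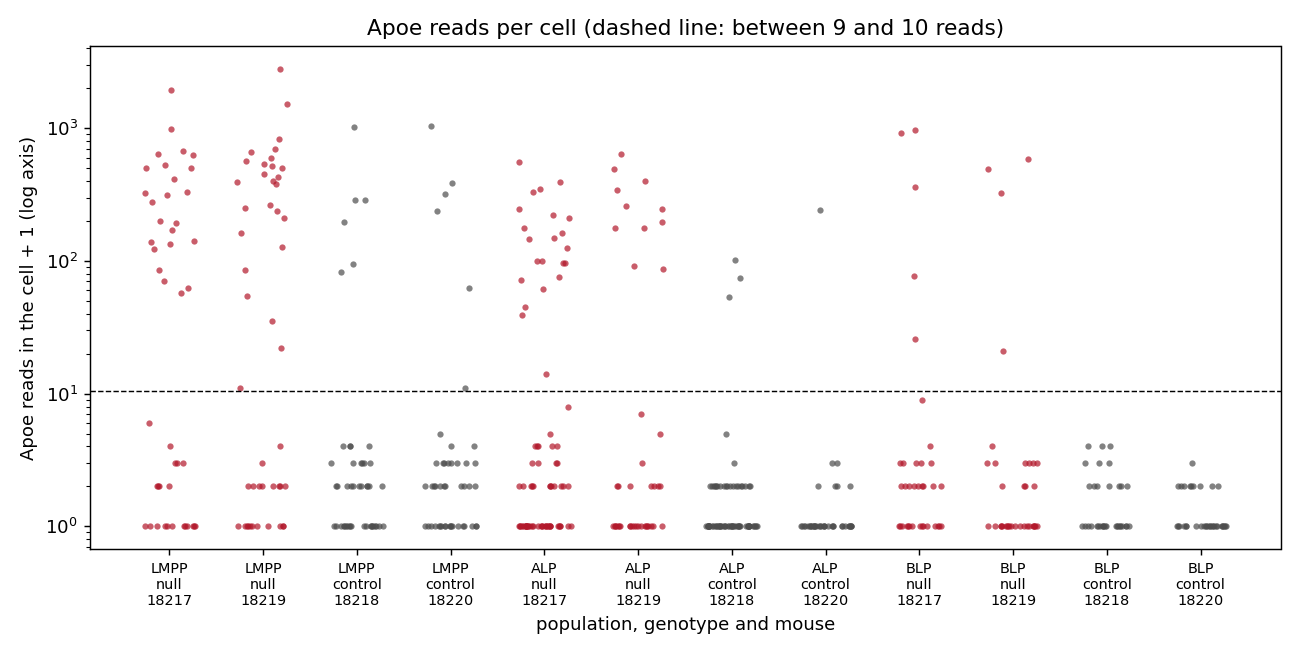
Apoe reads per cell plus 1 on a log axis for each population and mouse, with 1 point per kept cell, null cells in red and control cells in grey. Most points above the dashed line are null LMPPs and ALPs, and few points lie close to the line.

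Populations differed in how many of their cells were Apoe-positive, and the 2 null mice gave similar shares. In null LMPPs 24 of 45 cells of mouse 18217 were positive (53.3%, 95% Wilson interval 39.1 to 67.1) and 26 of 47 cells of mouse 18219 (55.3%, 41.2 to 68.6). Null ALPs had 22 of 79 (27.8%, 19.2 to 38.6) and 11 of 42 (26.2%, 15.3 to 41.1). Null BLPs had 5 of 36 (13.9%, 6.08 to 28.7) and 4 of 35 (11.4%, 4.54 to 26.0). Means over mice were 54.3% ± 1.40 in LMPPs, 27.0% ± 1.17 in ALPs and 12.7% ± 1.74 in BLPs (SD, n = 2 mice). The share was thus lower in each later population in both mice, as a description of the counts that selected the cells. The Wilson intervals of ALPs and BLPs overlap in each mouse. With a limit of 1 read the ALP and BLP means lay close, at 53.5% and 50.6%.

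Control mice also had cells with 10 or more Apoe reads, at a lower share, 16 of 277 cells. Control LMPPs had 6 of 47 positive cells in each mouse (12.8%, 5.98 to 25.2). In mouse 18220 the fewest reads in such a cell were 10, and the lowest level was 0.749 CPM. That level is below the 11.7 CPM reached among the other null cells, so the limit on raw reads was passed through depth there. Control ALPs had 3 of 74 (4.05%) and 1 of 40 (2.5%). Control BLPs had 0 of 34 and 0 of 35, which allows shares of up to 8.82% and 8.57% where 3 cells are taken as the limit of a count of 0, with Wilson upper bounds of 10.2% and 9.89%. Both null mice lay above both control mice in each population, a contrast that led to the choice of these cells and so carries no test. Intervals and upper limits cover counting error among cells only, and cells of a mouse are not replicates.

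**Figure D2:**
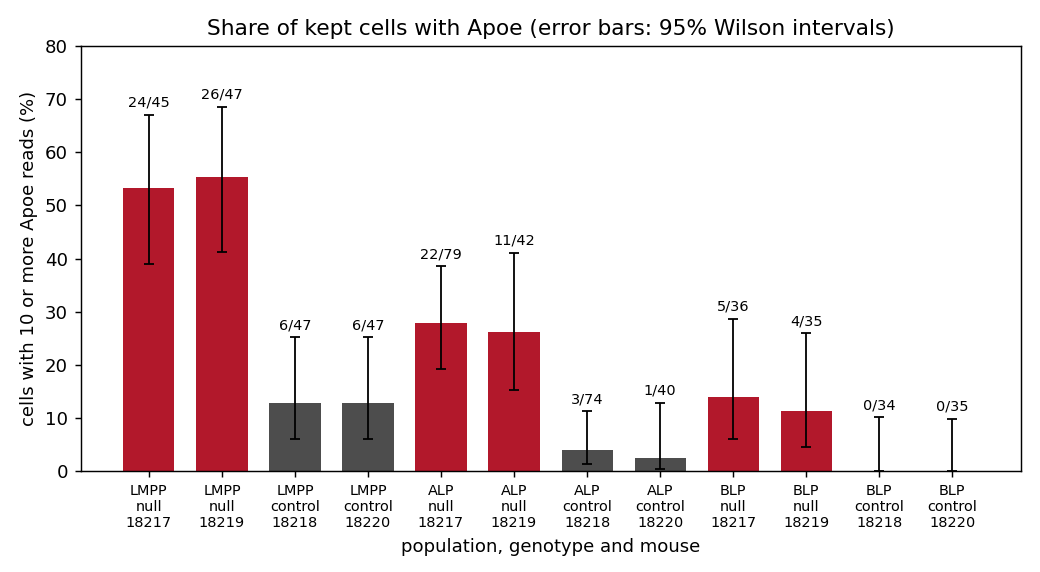
Percent of kept cells with 10 or more Apoe reads per population and mouse, null in red and control in grey, with 95% Wilson intervals and the number of cells above each bar. Null LMPPs stand at 53.3% and 55.3%, against 12.8% in both control LMPP samples.

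A limit on raw reads favours deep cells, so depth was set beside the classes. Median nuclear gene reads per cell were 1445764 in Apoe-positive LMPPs and 996916 in other LMPPs of mouse 18217, and 1035916 and 797629 in the same classes of mouse 18219. In ALPs they were 1068951 in Apoe-positive and 1083689 in other cells of mouse 18217, and 1679248 and 1068293 in those of mouse 18219. In BLPs they were 1490780 and 1049548 in mouse 18217, and 3084781 and 1046545 in mouse 18219. Apoe-positive cells were thus deeper in 5 of the 6 pairs. Spike-in RNA took a median of 5.37% to 13.1% of counts in the 6 Apoe-positive samples and 9.90% to 14.6% in the 6 others.

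When each cell was thinned to 50000 nuclear reads, an Apoe read was seen in 75% to 100% of Apoe-positive cells of a null sample, against 0% to 10.5% of the other cells. The classes were set by these same Apoe reads, so this split follows largely from the limit and is no check of it. At that depth an Apoe read was present in 51.1% and 57.4% of null LMPPs, against 17.0% and 12.8% of control LMPPs. Null ALPs had 34.2% and 26.2%, against 2.70% and 2.5% in control ALPs, and null BLPs had 13.9% and 17.1%, against 0% in control BLPs of both mice. The gap between genotypes in these shares therefore remained at equal depth.

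Other genes were compared by summing reads per mouse, population and Apoe class into 12 null libraries and testing 17256 genes with edgeR's quasi-likelihood test, at a Benjamini-Hochberg adjusted p of 0.05. In LMPPs no gene was called (0% of genes tested). There, 602 genes (3.49%) had an unadjusted p under 0.05, DESeq2 called 235 and limma-voom called 0. In ALPs no gene was called either (0%), with 503 genes (2.91%) at an unadjusted p under 0.05, 182 called by DESeq2 and 0 by limma-voom. BLPs had 54 called genes (0.313%), 1 higher and 53 lower in Apoe-positive cells, and 4 called genes with the mouse as a block. For BLPs limma-voom called 0, cells thinned to 50000 reads gave 1, other cells with 0 Apoe reads gave 2 and DESeq2 called 2002, so the count depends on the method. The called genes with higher and lower levels in BLPs are 0.0058% and 0.307% of genes tested, and 13.8% of genes had an unadjusted p under 0.05. The mean of the 3 populations had 1 called gene (0.0058%), Vps35, with 9.5% of genes at an unadjusted p under 0.05, and 0 called genes with the block. The difference between populations had 1 called gene (0.0058%), again Vps35, with 8.08% at an unadjusted p under 0.05. In summed RNA, fewer cells with a transcript and less of it per cell cannot be told apart, so the share of cells with a read at 50000 reads per cell is given where it helps. Except where a gene is said to be called, the values below describe these libraries and did not pass the test.

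**Figure D3:**
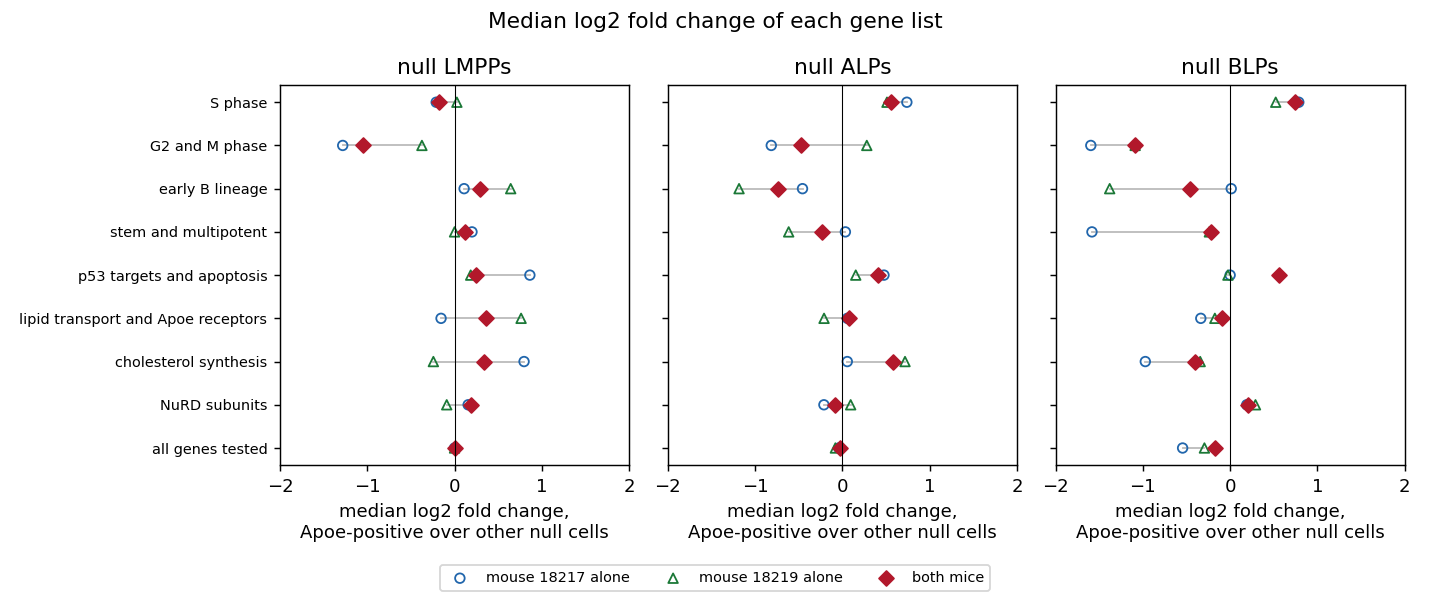
Median log2 fold change of 8 gene lists and of all genes tested, Apoe-positive over other null cells, in LMPPs, ALPs and BLPs, for each mouse alone and for both. S phase genes lie right of 0 in ALPs and BLPs (0.55 and 0.74), and early B lineage genes lie left of 0 in ALPs (-0.74).

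The neighbours of Apoe gave few reads or varied between libraries. Apoc1, a small apolipoprotein next to Apoe, had 0.312 and 1.07 CPM in Apoe-positive LMPPs of mice 18217 and 18219 and 0 CPM in the other LMPPs and in both classes of ALPs and BLPs. At 50000 reads per cell an Apoc1 read was seen in 0% and 3.85% of Apoe-positive LMPPs. Apoc2, a cofactor of lipoprotein lipase, was seen in 4.17% and 0% of them, and Apoc2 and Apoc4 had too few reads to be tested. So these neighbours gave almost no reads in cells whose Apoe reads reached medians of 293 and 398 in LMPPs. Clptm1, a transmembrane protein gene next in the region, had 80.9 and 133 CPM in Apoe-positive LMPPs, against 91.2 and 107 CPM in other LMPPs. Nectin2, a cell adhesion gene, had 192 and 0 CPM in Apoe-positive BLPs, against 0.119 and 0.649 CPM in other BLPs, so its reads came from mouse 18217.

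Tomm40, the channel of the mitochondrial import pore, had 127 and 97.9 CPM in Apoe-positive LMPPs, against 101 and 102 CPM in other LMPPs. In ALPs it had 68.4 and 79.7 CPM in Apoe-positive cells, against 110 and 100 CPM in the others. BLPs went the other way, with 323 and 104 CPM in Apoe-positive cells, against 85.7 and 61.1 CPM. Its log2 fold change in BLPs was 1.54 ± 0.51 (SE, adjusted p = 0.248, edgeR with Benjamini-Hochberg adjustment), so no common direction appeared.

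Genes of lipid handling did not share one direction with Apoe. Of 22 tested genes for lipid transport and Apoe receptors, 16 were higher in Apoe-positive LMPPs, 13 in ALPs and 9 in BLPs, against 49.4%, 47.7% and 43.5% of all genes. Their medians were 0.36, 0.08 and -0.09 on the log2 scale. The mice differed in direction in LMPPs, with medians of -0.15 in mouse 18217 and 0.76 in mouse 18219, and in ALPs, with 0.06 and -0.21. Vldlr, a receptor that binds Apoe, had 89.8 and 186 CPM in Apoe-positive LMPPs, against 108 and 45.9 CPM in other LMPPs, with overlap.

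Of 24 genes for cholesterol synthesis, 14 were higher in Apoe-positive LMPPs, 17 in ALPs and 10 in BLPs. Over all genes 49.4%, 47.7% and 43.5% were higher. The list medians were 0.34, 0.58 and -0.40. In LMPPs the median was 0.80 in mouse 18217 alone and -0.24 in mouse 18219 alone, and in ALPs it was 0.06 and 0.72. In BLPs it was 0.35 when log values were averaged over cells. Scap, which escorts the sterol-sensing factor SREBP, had 542 and 196 CPM in Apoe-positive BLPs, against 114 and 108 CPM in other BLPs, and a log2 fold change of 1.73 ± 0.59 (SE, adjusted p = 0.257, edgeR with Benjamini-Hochberg adjustment). At equal depth Scap was read in 100% of Apoe-positive BLPs of both mice, against 54.8% and 38.7% of other BLPs. Dhcr7, which makes the last step to cholesterol, went the other way there, with 3.43 and 2.02 CPM in Apoe-positive BLPs, against 74.0 and 14.3 CPM.

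Most early B lineage genes were lower in Apoe-positive ALPs, while their summed level was close between classes. Of the 29 members tested, 26 had a negative log2 fold change, against 51.8% of all genes, and none was called. Their median was -0.74, against -0.03 over all genes. It was -0.46 in mouse 18217 alone and -1.18 in mouse 18219 alone. In both mice 19 members were lower, as were 4964 of all 17256 genes tested. The whole list summed to 10526 and 12047 CPM in Apoe-positive ALPs, against 10882 and 12362 CPM in other ALPs. In BLPs the sums were 16136 and 14620 CPM, against 13950 and 14098 CPM. At 50000 reads per cell, 26 members were lower in ALPs with a median of -0.77. In LMPPs 20 of 29 members were higher with a median of 0.29. In BLPs 20 of 29 were lower with a median of -0.46, against -0.17 over all genes, and mouse 18217 alone had a median of 0.01.

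Rag1, a subunit of the recombinase that assembles antigen receptor genes, had 82.2 and 138 CPM in Apoe-positive ALPs of mice 18217 and 18219, against 208 and 284 CPM in other ALPs. The classes did not overlap, and the log2 fold change was -1.16 ± 0.45 (SE, unadjusted p = 0.0302, adjusted p = 1, edgeR with Benjamini-Hochberg adjustment). In cells at equal depth, Rag1 was read in 68.2% and 54.5% of Apoe-positive ALPs, against 77.2% and 74.2% of other ALPs. In BLPs it had 131 and 244 CPM in Apoe-positive cells, against 211 and 369 CPM, and here the classes overlap across mice.

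Pax5, the factor that commits cells to the B lineage, was chosen after its values were seen. It had 1.07 and 0.201 CPM in Apoe-positive ALPs, against 41.9 and 39.9 CPM in other ALPs. At equal depth it was read in 9.09% and 0% of Apoe-positive ALPs, against 10.5% and 32.3% of other ALPs, so in mouse 18217 the share of cells was almost equal. In BLPs the mice differed in direction: Pax5 had 484 and 0.162 CPM in Apoe-positive BLPs, against 58.4 and 91.3 CPM in other BLPs. At equal depth it was read there in 40% and 0% of Apoe-positive cells, against 38.7% and 32.3% of other cells.

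Ebf1 and Dntt overlapped between classes in ALPs, and Il7r did too. Ebf1, which acts before Pax5, had 53.2 and 248 CPM in Apoe-positive ALPs, against 190 and 197 CPM in other ALPs. Dntt, the polymerase that adds bases at receptor joints, had 8003 and 9344 CPM in Apoe-positive ALPs, against 7588 and 8048 CPM. Il7r, which encodes the receptor chain of the gate, had 571 and 486 CPM in Apoe-positive ALPs, against 608 and 560 CPM. Ly6d, the gate gene that separates ALPs and BLPs, did not overlap: it was read at equal depth in 31.8% and 27.3% of Apoe-positive ALPs, against 43.9% and 41.9% of other ALPs.

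Spib, an Ets family factor of B and dendritic cells, had 0.0953 and 0 CPM in Apoe-positive BLPs, against 21.5 and 26.7 CPM in other BLPs (adjusted p = 0.118, edgeR with Benjamini-Hochberg adjustment). Pou2af1, a B cell coactivator, had 1.53 and 0 CPM in Apoe-positive BLPs, against 20.9 and 25.0 CPM. Both sets of values come from 9 Apoe-positive and 62 other BLPs.

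Ly6a, the gene of the stem cell antigen Sca-1, was higher in the Apoe-positive library of every pair. In LMPPs it had 274 and 450 CPM in Apoe-positive cells, against 233 and 245 CPM in others. ALPs had 133 and 915 CPM, against 70.3 and 161 CPM, and BLPs had 473 and 283 CPM, against 268 and 167 CPM. Within a mouse the Apoe-positive library was the higher one in 6 of 6 pairs, while across mice the ALP classes overlap. At equal depth Ly6a was read in 87.5% and 80.8% of Apoe-positive LMPPs, against 61.9% and 71.4% of other LMPPs. The shares were 68.2% and 72.7% in Apoe-positive ALPs, against 49.1% and 41.9%, and 100% and 75% in Apoe-positive BLPs, against 74.2% and 45.2%. Its log2 fold change over the 3 populations was 1.19 ± 0.45 (SE, unadjusted p = 0.0254, adjusted p = 0.46, edgeR with Benjamini-Hochberg adjustment).

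Cd34, a surface marker of early progenitors, had 231 and 514 CPM in Apoe-positive BLPs, against 72.4 and 164 CPM in other BLPs. In ALPs it had 806 and 710 CPM in Apoe-positive cells, against 491 and 510 CPM, and the classes did not overlap in either population. At equal depth Cd34 was read in 100% of Apoe-positive ALPs of both mice, against 89.5% and 64.5% of other ALPs. In BLPs the mice differed in direction, with 100% and 50% of Apoe-positive cells, against 58.1% and 61.3% of other cells. LMPPs, which carry the most Cd34, had 1498 and 1485 CPM in Apoe-positive cells, against 1507 and 1619 CPM. Flt3, the cytokine receptor of the gate, had 928 and 970 CPM in Apoe-positive ALPs, against 738 and 727 CPM in other ALPs. In BLPs it had 795 and 905 CPM, against 544 and 557 CPM, and over the 3 populations its log2 fold change was 0.42 ± 0.10 (SE, adjusted p = 0.336, edgeR with Benjamini-Hochberg adjustment).

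Hlf, a transcription factor of stem cells, was chosen after its values were seen. It had 216 and 280 CPM in Apoe-positive LMPPs, against 93.1 and 141 CPM in other LMPPs, and 35.0 and 37.7 CPM in Apoe-positive ALPs, against 18.4 and 16.4 CPM. In BLPs, where Hlf is low in both classes, it fell to 0.381 and 0.0809 CPM in Apoe-positive cells, against 4.86 and 3.99 CPM (adjusted p = 0.0477, edgeR with Benjamini-Hochberg adjustment; 0.0933 with the mouse as a block). None of the 9 Apoe-positive BLPs and 8 of the 62 other BLPs had 10 Hlf reads. Esam, an adhesion protein of stem cells, had 0 CPM in both Apoe-positive ALP libraries, against 1.61 and 9.77 CPM in other ALPs.

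The stem and multipotent list as a whole did not follow Ly6a. Of its 25 tested members, 16 were higher in Apoe-positive LMPPs, 9 in ALPs and 11 in BLPs. Over all genes 49.4%, 47.7% and 43.5% were higher. The list medians were 0.12, -0.23 and -0.22. Mouse 18217 alone had a median of 0.03 in ALPs and -1.58 in BLPs, and with log values averaged over cells the BLP median was 0.27.

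Myeloid genes were mixed. Of 13 tested neutrophil and monocyte genes, 8 were higher in Apoe-positive LMPPs, 11 in ALPs and 3 in BLPs. Over all genes 49.4%, 47.7% and 43.5% were higher. The list medians were 0.48, 0.52 and -0.57. In LMPPs mouse 18219 alone had a median of -0.09. Ctsg, a protease of neutrophil granules, had 176 and 140 CPM in Apoe-positive ALPs, against 41.2 and 42.7 CPM in other ALPs, a log2 fold change of 1.91 ± 0.48 (SE, adjusted p = 1, edgeR with Benjamini-Hochberg adjustment). At equal depth Ctsg was read in 36.4% of Apoe-positive ALPs in both mice, against 8.77% and 25.8% of other ALPs. Mpo, the peroxidase of the same granules, was read in fewer Apoe-positive LMPPs, 79.2% and 57.7%, against 95.2% and 81.0% of other LMPPs.

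Interferon response genes were higher more often than all genes in Apoe-positive ALPs and less often in BLPs. Dendritic cell genes were higher more often in ALPs, and T lineage genes less often in BLPs. The share of T lineage genes in ALPs (41.2%) and of dendritic cell genes in BLPs (31.6%) lay nearer to that of all genes. In LMPPs the shares of these 3 lists also lay nearer to it. Over all genes 49.4%, 47.7% and 43.5% were higher in LMPPs, ALPs and BLPs. Of 21 interferon genes, 12 were higher in Apoe-positive LMPPs, 15 in ALPs and 4 in BLPs, with medians of 0.17, 0.50 and -1.19. Of 19 dendritic cell and MHC class II genes, 11, 13 and 6 were higher, with medians of 0.16, 0.21 and -0.29. Of 17 T lineage genes, 8, 7 and 4 were higher, with medians of -0.09, -0.42 and -0.74. Isg15, a ubiquitin-like protein induced by interferon, had 0.0953 and 0 CPM in Apoe-positive BLPs, against 5.25 and 14.0 CPM in other BLPs, and 9.64 and 7.40 CPM in Apoe-positive LMPPs, against 3.01 and 2.56 CPM. No member of these 3 lists was called.

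Genes of DNA replication were higher in Apoe-positive ALPs and BLPs. All 22 S phase genes had a positive log2 fold change in ALPs, against 47.7% of all genes, and 22 of 22 did in BLPs, against 43.5%. None was called. Medians were 0.55 in ALPs and 0.74 in BLPs. In both mice 16 and 15 of the genes were higher, as were 3876 and 2731 of all 17256 genes tested. At 50000 reads per cell 21 of 22 were higher in ALPs with a median of 0.49. In BLPs 14 of 22 were higher at that depth with a median of 0.11, which is less than at full depth. In LMPPs 9 of 22 were higher and the median was -0.17, with 0.03 in mouse 18219 alone.

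Mcm4, a subunit of the replicative helicase, had 432 and 406 CPM in Apoe-positive ALPs, against 248 and 333 CPM in other ALPs. In BLPs it had 558 and 353 CPM, against 292 and 236 CPM, and the classes did not overlap in either population. Its log2 fold change over the 3 populations was 0.58 ± 0.20 (SE, unadjusted p = 0.0195, adjusted p = 0.439, edgeR with Benjamini-Hochberg adjustment). In BLPs the log2 fold change of Mcm4 ran from -0.25 to 1.29 over the settings. Mcm2, of the same helicase, had 459 and 565 CPM in Apoe-positive ALPs, against 294 and 378 CPM, and 398 and 417 CPM in Apoe-positive BLPs, against 282 and 215 CPM. Mcm6, another subunit, had 1185 and 1317 CPM in Apoe-positive ALPs, against 740 and 926 CPM.

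Mitotic genes were lower. Of 24 G2 and M phase genes, 20 were lower in Apoe-positive LMPPs, 19 in ALPs and 22 in BLPs, against 49.4%, 51.8% and 54.7% of all genes. Medians were -1.05, -0.47 and -1.09, and in ALPs mouse 18219 alone had a median of 0.28. The LMPP median was -0.37 in mouse 18219 alone, with 10 of 24 genes higher, -0.21 with mean CPM per cell and -0.31 against other cells with 0 Apoe reads. Over the mean of populations 23 of 24 were lower, against 56.6% of all genes, and 1 was higher, against 43.4%. Cenpe, a kinesin of the kinetochore, had 19.8 and 18.5 CPM in Apoe-positive LMPPs, against 41.8 and 39.1 CPM in other LMPPs. It had 7.67 and 6.14 CPM in Apoe-positive ALPs, against 37.7 and 20.3 CPM, and 8.68 and 2.59 CPM in Apoe-positive BLPs, against 112 in other BLPs of both mice. No class overlapped, and the log2 fold change over the 3 populations was -2.49 ± 0.42 (SE, adjusted p = 0.213, edgeR with Benjamini-Hochberg adjustment). At equal depth Cenpe was read in 16.7% and 15.4% of Apoe-positive LMPPs, against 19.0% and 9.52% of other LMPPs. The shares were 13.6% and 18.2% against 17.5% and 19.4% in ALPs, and 20% and 0% against 38.7% and 32.3% in BLPs. Over the settings its LMPP log2 fold change ran from -1.27 to 0.11.

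Ccnb2, a mitotic cyclin, was the only member called. It fell to 4.29 and 7.69 CPM in Apoe-positive BLPs, against 348 and 184 CPM in other BLPs, a log2 fold change of -5.47 ± 0.60 (SE, adjusted p = 0.0289, edgeR with Benjamini-Hochberg adjustment; 0.0702 with the mouse as a block). At equal depth, though, a Ccnb2 read was seen in 40% and 25% of Apoe-positive BLPs, against 38.7% and 25.8% of other BLPs. So in BLPs the shares of cells with Ccnb2 were close while its summed level was not. In mouse 18217 Ccnb2 was read in 20.8% of Apoe-positive LMPPs, against 33.3% of other LMPPs, and in 18.2% of Apoe-positive ALPs, against 31.6% of other ALPs. Mouse 18219 went the other way, with 15.4% against 14.3% in LMPPs and 27.3% against 16.1% in ALPs. Mki67, the proliferation antigen, was read in 41.7% and 26.9% of Apoe-positive LMPPs, against 42.9% and 28.6% of other LMPPs. In ALPs the mice differed in direction, with Mki67 in 68.2% and 27.3% of Apoe-positive cells, against 35.1% and 41.9% of other cells.

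Cdkn1a, the cyclin-dependent kinase inhibitor p21 and a target of p53, stood out in LMPPs. It had 13.6 and 53.0 CPM in Apoe-positive LMPPs, against 0.669 and 1.30 CPM in other LMPPs, a log2 fold change of 5.08 ± 0.80 (SE, unadjusted p = 0.000134, adjusted p = 1, edgeR with Benjamini-Hochberg adjustment). At equal depth it was read in 12.5% and 38.5% of Apoe-positive LMPPs, against 0% and 4.76% of other LMPPs. In ALPs it had 144 and 173 CPM in Apoe-positive cells, against 104 and 130 CPM, and in BLPs 677 and 240 CPM, against 190 and 245 CPM, with overlap in BLPs.

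Among 15 tested p53 targets and apoptosis genes, 11 were higher in Apoe-positive LMPPs, 12 in ALPs and 9 in BLPs. Over all genes 49.4%, 47.7% and 43.5% were higher. The list medians were 0.24, 0.41 and 0.56. In BLPs the median was 0.00 in mouse 18217 alone and -0.03 in mouse 18219 alone. With cells thinned to 50000 reads it was -0.07 in ALPs and -0.12 in BLPs. Phlda3, a p53 target that dampens Akt signalling, had 26.9 and 29.8 CPM in Apoe-positive LMPPs, against 14.8 and 11.2 CPM in other LMPPs. It had 48.7 and 63.2 CPM in Apoe-positive ALPs, against 34.9 and 15.9 CPM, and 201 and 136 CPM in Apoe-positive BLPs, against 14.5 and 59.3 CPM. The classes did not overlap in any population, and the log2 fold change over the 3 was 1.48 ± 0.41 (SE, adjusted p = 0.381, edgeR with Benjamini-Hochberg adjustment). At equal depth Phlda3 was read in 16.7% and 19.2% of Apoe-positive LMPPs, against 4.76% and 14.3% of others. In ALPs the mice differed in direction, with 27.3% and 54.5%, against 29.8% and 12.9%. The BLP shares were 40% and 75%, against 19.4% and 32.3%.

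Other genes with higher levels in Apoe-positive LMPPs were of several kinds. Ccr9, a chemokine receptor of thymus-homing progenitors, had 89.7 and 227 CPM in Apoe-positive LMPPs, against 2.24 and 1.42 CPM in other LMPPs. At equal depth it was read in 33.3% and 23.1% of Apoe-positive LMPPs, against 9.52% of other LMPPs in both mice. Sla2, an adaptor that dampens antigen receptor signals, had 58.5 and 160 CPM in Apoe-positive LMPPs, against 6.99 and 9.21 CPM. Trim11, a ubiquitin ligase gene, had 45.2 and 67.4 CPM in Apoe-positive LMPPs, against 10.3 and 8.11 CPM. All 3 genes were higher in Apoe-positive libraries of both mice, and each had an adjusted p of 1 by edgeR with Benjamini-Hochberg adjustment. None of the 17256 genes was called in LMPPs, where 3.49% had an unadjusted p under 0.05 by edgeR.

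Xbp1, a factor of the unfolded protein response, had 198 and 251 CPM in Apoe-positive LMPPs, against 95.6 and 115 CPM in other LMPPs. It had 192 and 165 CPM in Apoe-positive ALPs, against 107 and 86.1 CPM, and 253 and 308 CPM in Apoe-positive BLPs, against 145 and 230 CPM. No class overlapped, and the log2 fold change over the 3 populations was 0.85 ± 0.18 (SE, adjusted p = 0.294, edgeR with Benjamini-Hochberg adjustment). At equal depth Xbp1 was read in 70.8% and 65.4% of Apoe-positive LMPPs, against 42.9% and 57.1% of others, and in ALPs in 59.1% and 63.6%, against 54.4% and 54.8%. In BLPs the mice differed in direction, with 40% and 75%, against 71.0% and 61.3%. Over the settings its BLP log2 fold change ran from -0.33 to 0.69. Isyna1, which makes inositol phosphate, had 389 and 290 CPM in Apoe-positive ALPs, against 136 and 150 CPM, and 547 and 218 CPM in Apoe-positive BLPs, against 109 and 136 CPM. At equal depth Isyna1 was read in 72.7% and 90.9% of Apoe-positive ALPs, against 73.7% and 48.4% of other ALPs. In BLPs its shares were 60% and 50%, against 61.3% and 45.2%.

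**Figure D4:**
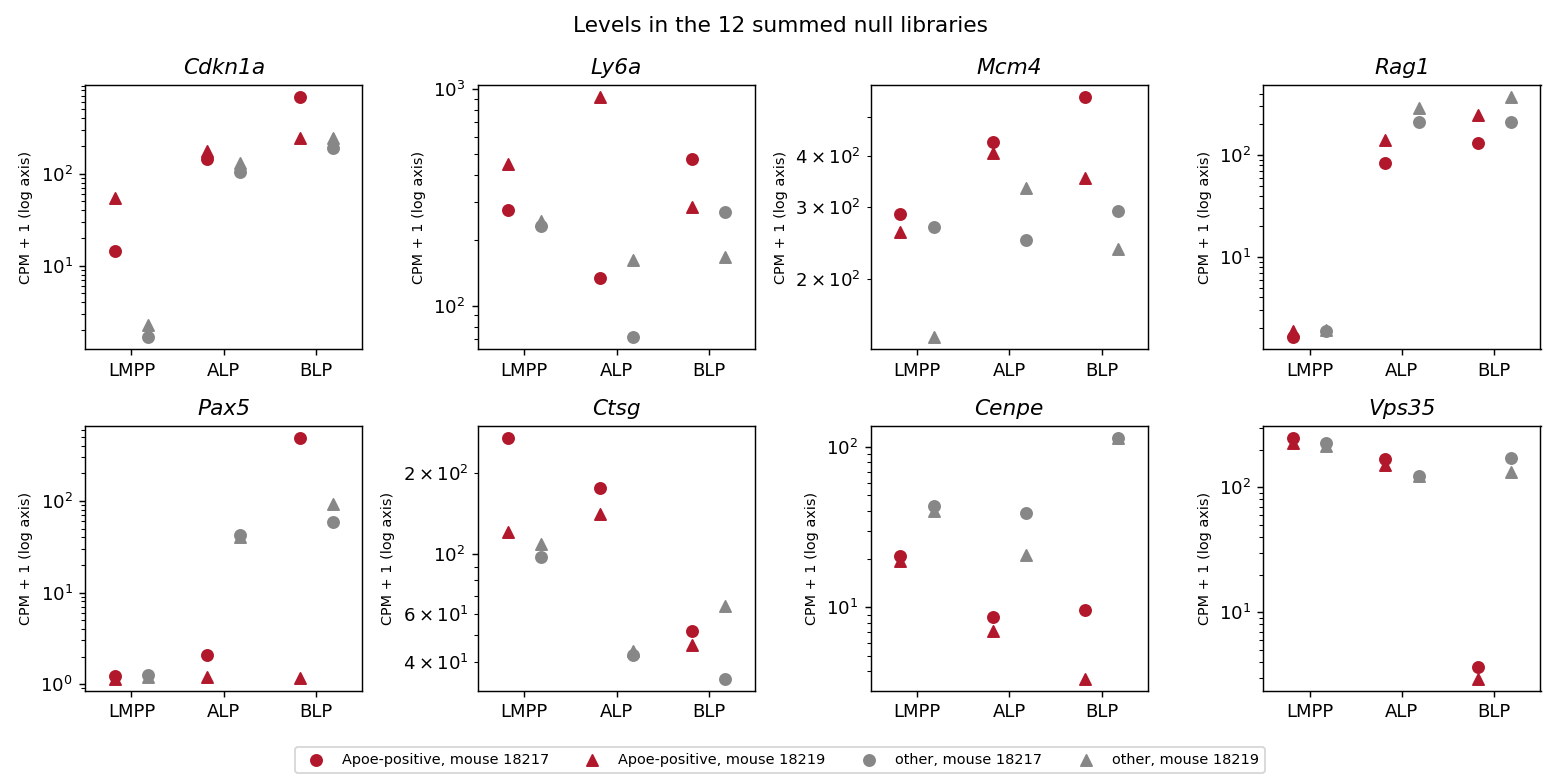
Level of 8 genes in the 12 summed null libraries, as CPM plus 1 on log axes, with Apoe-positive libraries in red left of the other null libraries in grey, circles for mouse 18217 and triangles for mouse 18219. Cdkn1a separates the LMPP classes (13.6 and 53.0 against 0.669 and 1.30 CPM), and Vps35 separates the BLP classes (2.67 and 1.94 against 172 and 132 CPM).

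The 54 called genes of BLPs rest on few cells. Apoe-positive BLPs were 5 cells of mouse 18217 and 4 of mouse 18219, against 31 other BLPs in each mouse. Of the 53 genes called lower, 45 had no Apoe-positive BLP with 10 reads, and 48 had at most 1. Among the other 62 BLPs, a median of 24.2% of cells (6.45% to 61.3%) had 10 reads of such a gene. A single cell gave a median of 82.2% and 76.2% of a gene's reads in the Apoe-positive BLP libraries, against 33.3% and 37.5% in the others. The part of cell number in these calls was not tested.

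Vps35, the core of the retromer that returns receptors from endosomes, had the smallest p. It fell to 2.67 and 1.94 CPM in Apoe-positive BLPs, against 172 and 132 CPM in other BLPs, a log2 fold change of -6.04 ± 0.36 (SE, adjusted p = 0.000851, edgeR with Benjamini-Hochberg adjustment). In LMPPs it had 246 and 224 CPM in Apoe-positive cells, against 224 and 212 CPM, and in ALPs 166 and 150 CPM, against 122 and 123 CPM, so the call over the mean of populations (adjusted p = 0.0373 by edgeR) came from BLPs. At equal depth a Vps35 read was present in 20% and 0% of Apoe-positive BLPs, against 67.7% and 38.7% of other BLPs.

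The other genes called with the mouse as a block were Enoph1, Cd82 and Kdm5b. Enoph1, an enzyme of methionine salvage, fell to 0.477 and 0.324 CPM in Apoe-positive BLPs, against 49.1 and 34.6 CPM in other BLPs. Cd82, a tetraspanin, fell to 0.191 and 0.243 CPM, against 30.5 and 36.6 CPM. Kdm5b, a demethylase of histone H3 lysine 4, fell to 7.44 and 9.30 CPM, against 106 and 144 CPM. Each had an adjusted p of 0.0208 by edgeR with Benjamini-Hochberg adjustment. Genes called without the block only include Mfn2, which fuses mitochondria, with 0 and 0.0809 CPM in Apoe-positive BLPs, against 38.9 and 44.2 CPM, and Hsf1, the heat shock factor, with 0.381 and 0.0809 CPM, against 56.1 and 53.4 CPM (adjusted p = 0.0382 for both, edgeR with Benjamini-Hochberg adjustment). Slc2a1, a glucose transporter, fell to 0 and 0.162 CPM, against 37.1 and 25.2 CPM (adjusted p = 0.0401, edgeR with Benjamini-Hochberg adjustment). Mpi, which makes mannose phosphate from fructose phosphate or the reverse, fell to 0.191 and 0.0809 CPM in Apoe-positive BLPs, against 27.4 and 45.3 CPM (adjusted p = 0.0352, edgeR with Benjamini-Hochberg adjustment). In ALPs Mpi went the other way, with 72.9 and 68.3 CPM in Apoe-positive cells, against 6.10 and 6.00 CPM.

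Afp was the 1 gene called higher. It encodes alpha-fetoprotein, a serum protein of the fetal liver, and rose to 85.1 and 16.7 CPM in Apoe-positive BLPs, against 0.143 and 0.264 CPM in other BLPs (adjusted p = 0.0401, edgeR with Benjamini-Hochberg adjustment; 0.088 with the mouse as a block). These reads came from few cells, since 2 of 9 Apoe-positive and 0 of 62 other BLPs had 10 Afp reads. In LMPPs Afp went the other way, with 10.1 and 11.6 CPM in Apoe-positive cells, against 56.8 and 30.0 CPM. Hdac6, a cytoplasmic deacetylase, also differed in direction, with 37.2 and 37.5 CPM in Apoe-positive LMPPs, against 0.602 and 2.13 CPM, while it fell to 0.0953 and 0.0809 CPM in Apoe-positive BLPs, against 39.3 and 19.0 CPM (adjusted p = 0.0382, edgeR with Benjamini-Hochberg adjustment; adjusted p = 0.123 for the difference between populations).

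No NuRD subunit gene was called. Of 15 such genes, Mbd3 included, 10 were higher in Apoe-positive LMPPs, 6 in ALPs and 11 in BLPs. Over all genes 49.4%, 47.7% and 43.5% were higher. The list medians were 0.19, -0.08 and 0.21, and the mice differed in direction in LMPPs and ALPs. Rbbp7, a histone-binding subunit, had 457 and 430 CPM in Apoe-positive ALPs, against 300 and 319 CPM in other ALPs, and 370 and 450 CPM in Apoe-positive BLPs, against 260 and 232 CPM. Mbd2, the alternative to Mbd3 within NuRD, had 27.8 and 28.9 CPM in Apoe-positive BLPs, against 94.9 and 87.3 CPM.

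Macrophages are rich in Apoe, so their markers were counted. Adgre1 and C1qc reached 10 reads in 0 of 92 Apoe-positive cells and 0 of 192 other null cells. C1qa did so in 1 and 0 cells, C1qb in 0 and 1, Mrc1 in 0 and 2, and Csf1r in 5 (5.43%) and 12 (6.25%). Defining macrophage markers were thus at or near 0 in Apoe-positive cells, with the exceptions of Csf1r and Cd68. Cd68, a lysosomal protein of macrophages, reached 10 reads in 43 Apoe-positive cells (46.7%) and in 52 other null cells (27.1%). These counts pool populations. At equal depth Cd68 was read in 60% and 75% of Apoe-positive BLPs, against 25.8% and 19.4% of other BLPs. The shares were 31.8% and 54.5% against 24.6% and 25.8% in ALPs, and 70.8% and 30.8% against 47.6% and 33.3% in LMPPs. Its highest level in a library was 631 CPM in Apoe-positive cells and 113 CPM in others. Its BLP log2 fold change ran from 1.66 to 3.27 over the settings. The whole macrophage list summed to 731 to 1823 CPM over the Apoe-positive libraries and 578 to 1391 CPM over the others, and 12 of its 26 genes had 10 reads in an Apoe-positive cell. The part of Cd68-bearing cells in the other differences was not tested.

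Defining markers of stroma, erythroid cells and megakaryocytes were found in few cells of either class. Of stromal markers, Cxcl12 reached 10 reads in 2 Apoe-positive and 1 other null cell, Lepr in 0 and 1, and Col1a1 in 0 and 2. Among erythroid and megakaryocyte markers, Gata1 did so in 0 and 0 cells, Klf1 in 0 and 2, Hbb-bs in 4 and 10, and Pf4, a platelet chemokine, in 2 and 0. Summed stromal genes came to 183 to 359 CPM in Apoe-positive libraries and 205 to 302 CPM in the others, with overlap. The erythroid and megakaryocyte list summed to 628 to 4286 CPM in Apoe-positive libraries and 425 to 4343 CPM in the others, and 17 of its 26 genes had 10 reads in an Apoe-positive cell. Mast cell and basophil genes summed to 1065 to 1681 CPM and 1023 to 1545 CPM in the same classes. The ranges overlap, and the part of such cells in the other differences was not tested.

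Apoe-positive control LMPPs, 6 cells in each mouse, were compared with 41 other control LMPPs per mouse in a joint fit with the null LMPPs. Those of mouse 18220 include a deep cell with Apoe at only 0.749 CPM. The part of that cell in the summed library, and so in the control values below, was not tested. The fit called 30 of 17936 genes (0.167%), all lower, with 11% of genes at an unadjusted p under 0.05, and 0 genes differed in effect between genotypes (0%) by edgeR, with 1689 (9.42%) at an unadjusted p under 0.05. Of 24 G2 and M phase genes 20 were lower, as many as in null LMPPs, and Cenpe fell to 0.574 and 0.162 CPM in Apoe-positive control LMPPs, against 36.1 and 25.1 CPM in other control LMPPs (adjusted p = 0.0443, edgeR with Benjamini-Hochberg adjustment).

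The p53 list went the other way in control cells, with 15 of 17 genes lower, against 53.8% of all genes, and 2 higher, against 44.5%. Its median was -1.85. Phlda3 fell to 0.082 and 0.323 CPM in Apoe-positive control LMPPs, against 21.6 and 34.5 CPM (adjusted p = 0.0418, edgeR with Benjamini-Hochberg adjustment), and the difference from null LMPPs had an adjusted p of 0.127 by edgeR. Cdkn1a had 0.328 and 17.5 CPM in Apoe-positive control LMPPs, against 28.7 and 36.3 CPM in other control LMPPs. Il7r fell to 2.30 and 1.86 CPM, against 29.6 and 16.9 CPM (adjusted p = 0.0464, edgeR with Benjamini-Hochberg adjustment), with an adjusted p of 0.187 for the difference between genotypes. Ly6a had 488 and 490 CPM in Apoe-positive control LMPPs, against 492 and 251 CPM, so its pairs did not share a direction there.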

How the data were processed

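Single cells were sorted 1 per well and their libraries made by the method of Picelli et al., per the labels' protocols, which uses no molecular identifiers. The deposited values are raw read counts per gene and cell, made by the authors with GSNAP and HTSeq 0.5.3p3 on mm10, per the submitters' processing notes. No source states strand use, so reads of a gene cannot be separated from those of an overlapping or antisense gene. Genes took 43.2% of entries, spike-ins 6.13% and summary rows 50.7%; only genes entered library sizes and tests.

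Cells were kept with at least 50000 nuclear gene counts, 1000 genes, at most 20% mitochondrial and at most 50% spike-in counts. No doublet caller was run, and 0 pairs of cells had identical counts. Counts were summed per mouse, population and Apoe class into 12 libraries of 12615165 to 72506050 counts. They were filtered with filterByExpr, scaled by TMM and fitted with edgeR 4.0.16 (R 4.3.3) as group means with 6 residual degrees of freedom. The common biological coefficient of variation was 100.3%. Apoe was left out of the calls. Adjusted p-values are Benjamini-Hochberg values over all genes; SE is the log2 fold change divided by the square root of F. Library CPM are TMM-scaled, and CPM per cell are per 1000000 gene counts. P-values rest on the spread between libraries of the same population and Apoe class from the 2 mice, pooled over the groups. Libraries of the same mouse were treated as independent. That spread holds both differences between mice and the sampling of cells, which cannot be told apart here. Shares at equal depth used cells thinned to 50000 reads, with seed 1.

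Both classes of a population came from the same mice, so mouse numbers pair the libraries. Deviations of paired libraries correlated at 0.0804 in LMPPs, 0.0792 in ALPs and 0.033 in BLPs. Alternatives used DESeq2 1.42.0, limma 3.58.1, other Apoe limits, depths, filters and weights. Named genes were Apoe, Mbd3 and neighbours of Apoe; up to 8 called genes per direction with the largest fold change, at least 20 CPM in the higher class and no overlap; for the mean of populations, which had fewer than 5, the 10 per direction with the smallest p; and up to 3 members of each list by p. Shares per cell were fixed for 22 genes; Pax5, Hlf and shares of other genes were added after values were seen. Members, lists and tests were chosen with earlier results of these data known. Scripts were tested on simulated data.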

Additional observations from a re-analysis of the deposited data

Results flagged for a closer look

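Vps35 was flagged because its difference between Apoe-positive and other null cells itself differed between populations. The edgeR quasi-likelihood test of that difference gave an adjusted p of 0.0054 with Benjamini-Hochberg adjustment, and 0.0136 with the mouse as a block. The log2 fold change was 0.11 ± 0.29 in LMPPs, 0.37 ± 0.29 in ALPs and -6.04 ± 0.36 in BLPs (SE). In BLPs 2 of 9 Apoe-positive cells and 30 of 62 other cells had 10 Vps35 reads.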

How the results depend on the processing

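Shares moved with the Apoe limit. With 1 read they were 75.0% in LMPPs, 53.5% in ALPs and 50.6% in BLPs, and with 50 reads 51.1%, 25.1% and 9.84%. At 50000 reads per cell they were 30.2% in ALPs and 15.5% in BLPs, and 20.2% in ALPs without cell limits. The order of the population means was the same in each. With 1 read the SD between mice was 4.92 in ALPs and 10.9 in BLPs, more than the gap between their means.

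Counts of called genes depended strongly on the method. Without a filter on low counts they were 16 in LMPPs, 2 in ALPs, 498 in BLPs, 206 over the mean of populations and 287 for the difference between populations. DESeq2 called 235, 182, 2002, 775 and 811. Mean CPM per cell with limma called 12, 5, 161 and, over the mean, 0. With the mouse as a replicate block there were 4 in BLPs and 0 over the mean. In BLPs limma-voom called 0, thinned cells 1, cells of at least 500000 reads 34, an Apoe limit of 50 reads 209, others at 0 Apoe reads 2, and mean log2(CPM + 1) 16. The mean of populations gave 0 with DESeq2 size factors, limma-voom, thinned cells, 50 reads, others at 0 reads, sums per mouse with and without the block, mean log values, 6 blocked pairs, BLPs left out, and cells of 10 or more Mbd3 reads left out. The difference between populations gave 0 with limma-voom, thinned cells, 50 reads, others at 0 reads and mean log values. The last of these settings, the 6 pairs and both omissions were chosen after seeing the data.

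Some fold changes turned direction, and the cause was not tested. Within single populations several named genes had log2 fold changes on both sides of 0 over the settings. In BLPs these ran from -0.25 to 1.29 for Mcm4, -0.37 to 0.58 for Mcm6 and -0.33 to 0.69 for Xbp1. There Cdkn1a ran from -0.12 to 1.20 and Pax5 from -3.00 to 1.82, and in LMPPs Ccnb2 ran from -0.57 to 0.39. These are examples, and other genes crossed 0 too. Vps35 over the mean was 0.24 without BLPs and 0.18 in sums per mouse, in both of which BLPs weigh less, against -1.86. Il7r in LMPPs was -0.18 with mean CPM, -0.22 with others at 0 reads and -0.16 with mean log values, against 0.28. Mcm6 over the mean was -0.012 when thinned. Mbd3 in LMPPs was -0.016 with mean log values and -0.74 without the 3 cells of 10 or more Mbd3 reads, against 5.67. Leaving out a mouse gives values without a test. With 2 mice per genotype and 9 Apoe-positive BLPs, small changes were not detectable.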
